A study of Mus musculus with 6 samples.

Results

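The genes described here encode the proteins of the cytosolic ribosome. They were chosen by symbol: rows of the count table whose Ensembl ID carries a coding-gene symbol of the form Rpl or Rps plus a number, or Rplp0, Rplp1, Rplp2 or Rpsa, with a mean of at least 5 CPM (counts scaled to library size) over the libraries. The rule took 77 genes of 52856 rows, 46 for the large (60S) and 31 for the small (40S) subunit, and used no difference between groups. Of 83 rows with such a symbol, 80 were coding genes. The coding genes left out, Rpl10l, Rpl39l and Rpl3l, are tissue-restricted paralogs, the highest of them Rpl39l at a mean of 0.405 CPM, whereas the lowest member averaged 59.7 CPM. Of the rows left out as pseudogenes the highest was Rps4l, at 1.80 CPM. A minimum of 1 or of 20 CPM gave the same number of members, 77.

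RNA was sequenced from CD4+ T cells, which include helper and regulatory cells, taken from the spleens of C57BL/6 mice aged 8 weeks. The cells were cultured for 48 hours with antibodies to CD3 and CD28, which engage the antigen receptor and a costimulatory receptor. The groups were wild type (WT, 3 libraries) and miPEP31-/- (miPEP31 KO, 3 libraries), both stimulated, with no unstimulated group. miPEP31 is a small peptide read from the transcript that also gives rise to miR-31. How the allele was made, and whether the libraries came from separate mice, is not stated in the sources used here, so p-values measure only the spread between these libraries, which may be technical.

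A ribosome joins a 40S subunit, which reads the mRNA, to a 60S subunit, which makes the peptide bond, and each holds a single copy of nearly every protein. Their mRNAs begin with a cytosine followed by a run of pyrimidines, the 5′ terminal oligopyrimidine (TOP) motif, through which LARP1 and the kinase complex mTORC1 set their translation and stability. T cells activated through their receptor make many new ribosomes before they divide.

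Library totals ran from 22865487 to 26295776 counts, and the lowest count of a member in any library was 1276, with a median of 20398 over members and libraries. The genotype was not checked by these data, since Mir31 had 0 counts in every library. The first principal component held 74.9% of the variance and separated the groups, while the KO libraries spread along the second, with 10.4%. Summed CPM of CD4 T cell markers (Cd4, Cd3e, Trac and others) ran from 2122 to 2234 in WT and from 1642 to 1858 in KO. Of these 8 markers, 6 were called lower by the edgeR test used below (75%, against 22.2% of all rows tested). Markers of other cells were low: macrophage markers summed to 1.26 to 2.00 CPM in WT and 28.4 to 63.0 in KO, almost all of it Mpeg1, while Adgre1 was at 0 and C1qa at or below 0.169 CPM in every library. B cell markers summed to 54.9 to 83.0 CPM in WT and 62.6 to 114 in KO, dendritic cell markers to 6.25 to 7.58 and 12.03 to 13.1, NK cell markers to 5.09 to 7.49 and 10.5 to 21.9, and CD8 markers to 12.5 to 15.8 and 15.9 to 36.9. The sum of stromal and endothelial markers was 48.0 to 60.2 CPM in WT and 19.99 to 27.2 in KO. Its fall lay in Pecam1, at 52.8 CPM in WT and 21.9 in KO (-1.27 on the log2 scale, edgeR adjusted p = 0.000244). The other genes of that list were at trace level and did not fall together. Col1a1 had 1.06 CPM in WT and 0.75 in KO, Col3a1 0.028 and 0.288, and Dcn 0.014 and 0.095. Neutrophil markers summed to at most 1.44 CPM and erythroid markers to at most 0.476 in any library. Their part in the results below was not tested, and in bulk samples fewer cells of a type and less RNA per cell cannot be told apart.

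Ribosomal protein mRNAs that changed in the KO were, with a single exception, slightly lower. Of the 77, 38 fell, 1 rose and 38 did not pass the test (edgeR quasi-likelihood test, Benjamini-Hochberg adjusted p under 0.05 over all 14387 rows tested). Among all rows tested 22.2% were called lower, 25.1% higher and 47.3% in either direction, so the members were called about as often as other rows, but 49.4% of them in the lower direction. The log2 fold change (log2FC, KO over WT) was below 0 in 66 members, with a median of -0.15 against 0.01 over all rows, and this median stayed below 0 under every one of 17 alternative settings. In 50 members every KO library lay below every WT library, and in 2, Rps20 and Rps19, every KO library lay above; over all rows these shares were 28.4% and 30.6%.

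The changes were small and close together. The middle 50% of the members' log2FCs ran from -0.26 to -0.06, against -0.34 to 0.35 over all rows. In 57 members the change was within 0.25 on the log2 scale, and among those called only Rpl5 and Rpl37a passed 0.5. Standard errors (SE) ran from 0.05 to 0.10. Across the 77 genes the log2FC had a Spearman rho of 0.15 with mean CPM and -0.13 with coding length, given as descriptions of genes that share libraries.

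**Figure D1:**
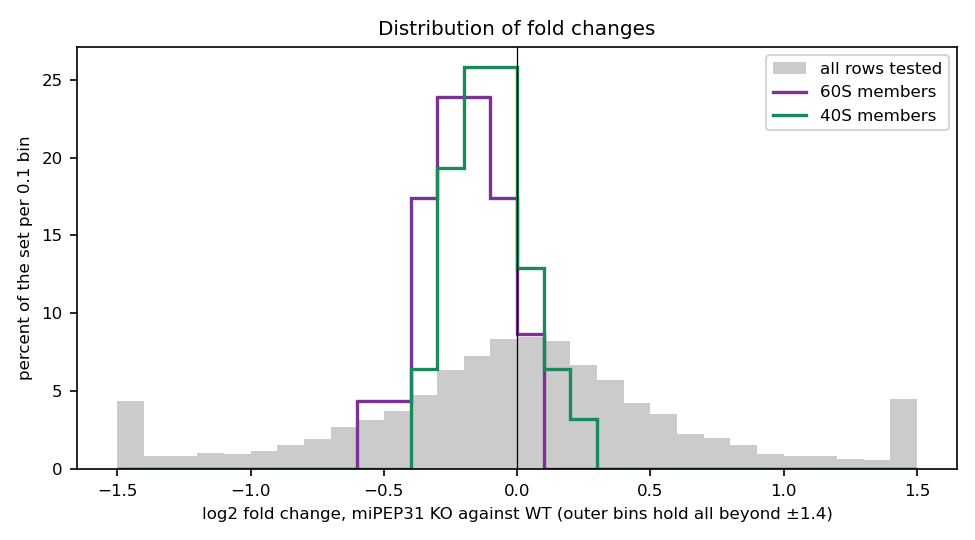
Log2 fold changes of miPEP31 KO against WT (x axis) as the percent of each set per bin of 0.1 (y axis), for all 14387 rows tested, the 46 genes of the 60S subunit and the 31 of the 40S subunit. Both subunits form a narrow peak just below 0, inside the wide spread of all rows.

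The share of a library's counts held by the 77 genes was 7.99%, 8.07% and 8.00% in WT and 7.53%, 7.17% and 7.61% in KO. The groups did not overlap, and KO replicate 2 was the lowest. The mean was 8.02% ± 0.04 in WT and 7.44% ± 0.24 in KO (SD, n = 3 each). Relative to the WT mean of each gene, the median member stood at -0.13, -0.24 and -0.13 on the log2 scale in KO replicates 1, 2 and 3. Without KO replicate 2 the edgeR test called 27 members lower, and the median was -0.13. The counts with fewer WT libraries were also lower, at 26 without WT replicate 1 and 25 without replicate 2 or replicate 3. Over all rows tested the number called lower, 3197 with every library, fell in each of these fits too. In each of these fits the members lost a larger share of their lower calls than all rows did. Whether that difference exceeds the spread between libraries was not tested.

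**Figure D2:**
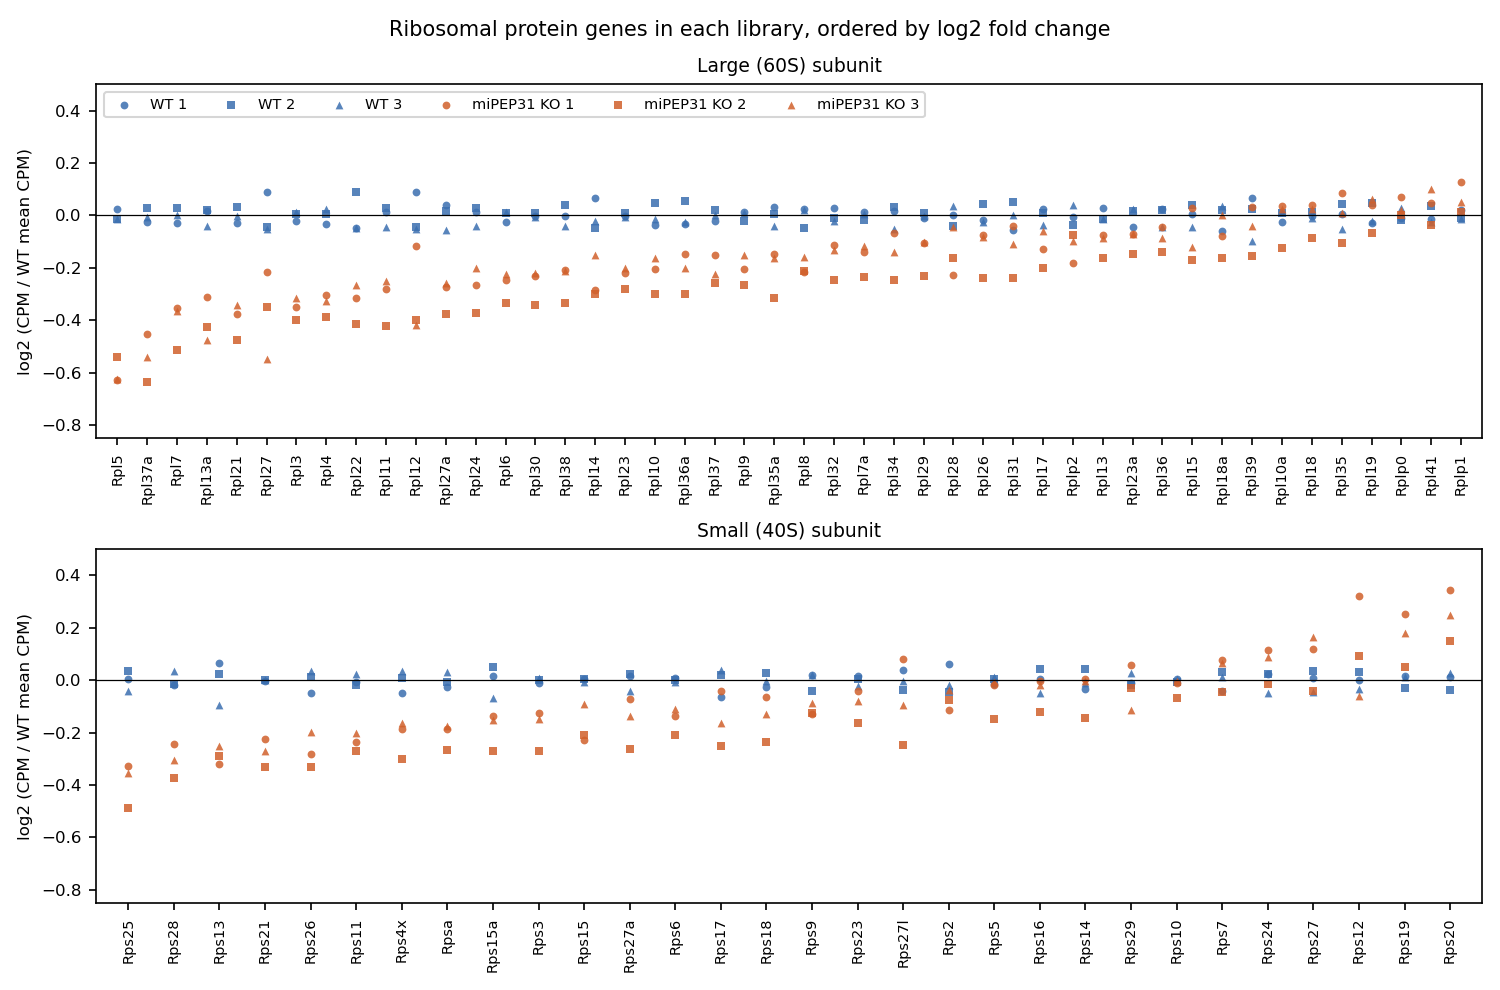
Each library's CPM over the gene's WT mean, on the log2 scale (y axis), for 76 members, of the 60S (top) and 40S subunit (bottom), ordered by fold change; colour gives the group and the marker shape the replicate. The squares of KO replicate 2 lie lowest among the KO libraries for most genes, and Rps20 and Rps19 stand at the right end with all KO points above 0.

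Genes of both subunits were among those that fell. Of 46 genes of the 60S subunit, 26 fell (56.5%) and none rose, with a median log2FC of -0.20. Of 31 genes of the 40S subunit, 12 fell (38.7%) and 1 rose, with a median of -0.11. Over all rows tested 22.2% fell and 25.1% rose. The 60S genes held 4.81% ± 0.03 of counts in WT and 4.38% ± 0.14 in KO, and the 40S genes 3.21% ± 0.01 and 3.06% ± 0.10 (SD, n = 3 each). The ratio of summed 60S to 40S counts, which does not depend on how libraries are scaled, was 1.498, 1.506 and 1.497 in WT and 1.432, 1.434 and 1.428 in KO. KO replicate 2, lowest in both shares, did not stand apart in this ratio. No test was made of the difference between subunits.

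**Figure D3:**
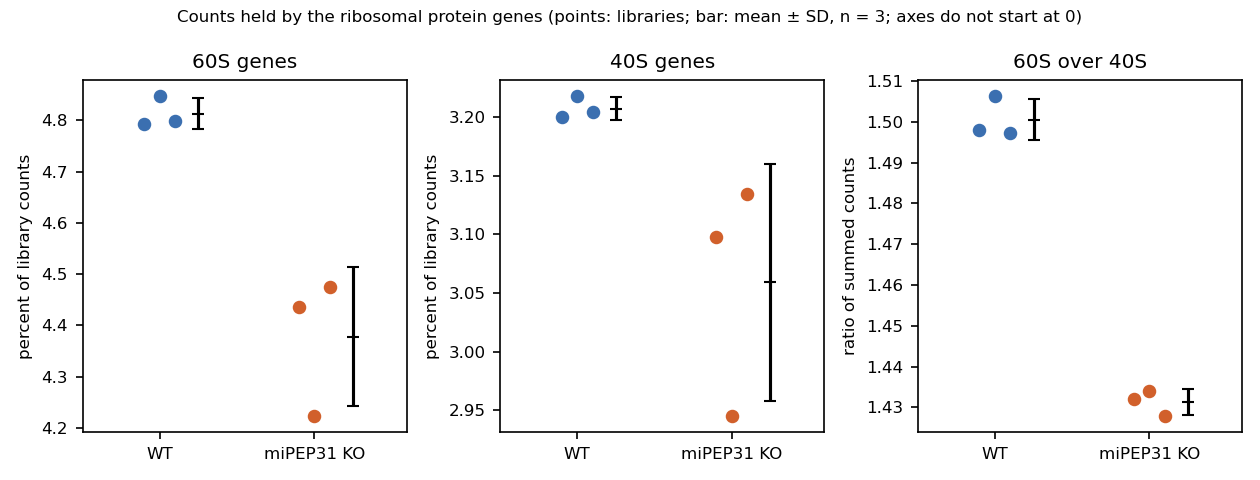
Percent of library counts on the 60S genes and on the 40S genes, and the ratio of their summed counts (y axes, not starting at 0), by group; points are libraries and bars the mean ± SD of 3. The ratio lies between 1.497 and 1.506 in WT and between 1.428 and 1.434 in KO.

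Many of these genes have processed copies, mRNAs pasted back into the genome, whose sequence is almost the same, and how the deposited counts divide reads between a gene and its copies is not stated in the sources used here. By sequence, 567 rows matched a ribosomal protein mRNA over at least 50% of their length at 90% identity or more. For 56 members these copies held under 1% of the counts of gene and copies together, for 16 at least 10%, and for 7 over 50%. The 7 were Rpl5, at 96.2% in WT, Rps12 (96.1%), Rpl12 (92.9%), Rpl27 (88.7%), Rpl10 (62.8%), Rpl27a (51.9%) and Rps13 (51.2%). The values of these genes' own rows are therefore uncertain. With the copies added to their genes, 35 members were called lower, all of them also lower without the copies, and 1 higher, against 22.2% and 25.1% of all rows; the median was -0.15, and the members with copies held 8.95% ± 0.04 of counts in WT and 8.32% ± 0.27 in KO (SD, n = 3 each). Rpl10, Rpl12 and Rps6 were then no longer called. The ratio of 60S to 40S counts was 1.609, 1.619 and 1.607 in WT and 1.536, 1.540 and 1.533 in KO with the copies added.

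**Figure D4:**
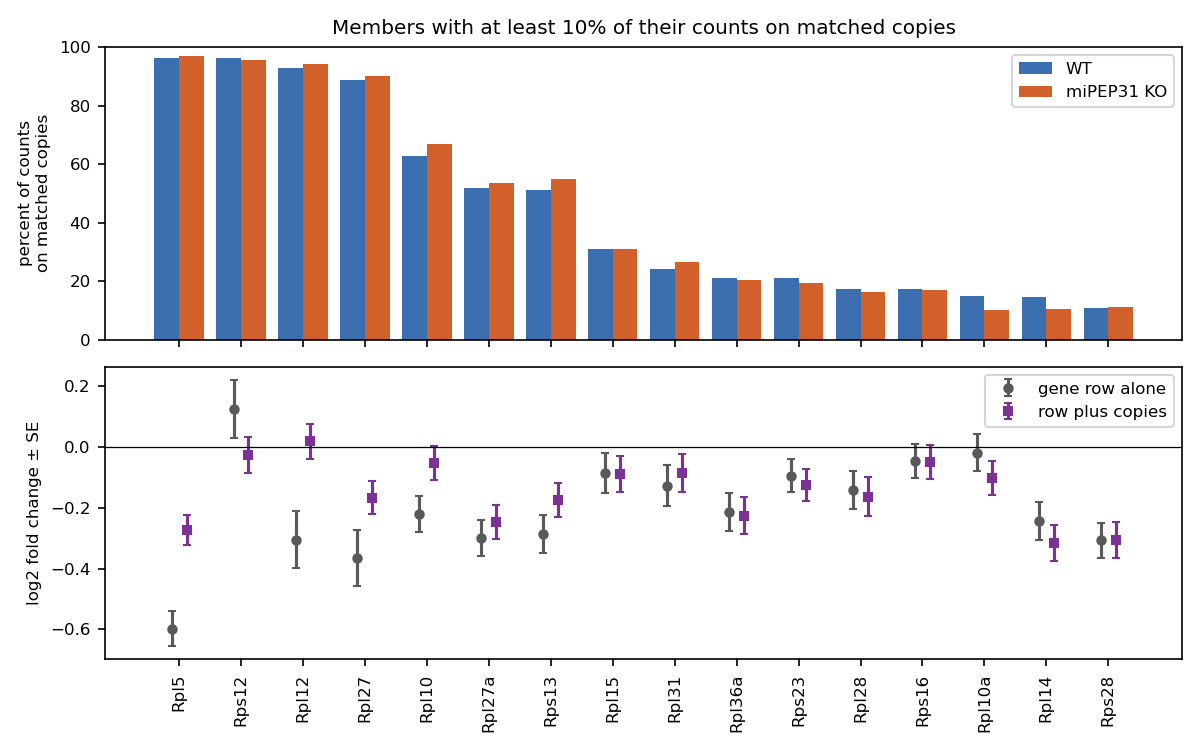
The 16 members with at least 10% of their counts on matched copies: the percent of counts on the copies in each group (top, y axis from 0 to 100) and the log2FC ± SE of the gene's row alone and with its copies added (bottom). Rpl5 moves from -0.60 to -0.27 and Rpl12 from -0.30 to 0.02 when the copies are added.

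Rpl5 and Rpl11 are carried with the 5S rRNA as one particle, which also binds the p53 inhibitor MDM2 when ribosome assembly fails. The row of Rpl5 (ENSMUSG00000058558, chromosome 5, 107900502 to 107909005, GRCm38) had 99.4, 96.8 and 96.8 CPM in WT and 63.2, 67.1 and 63.3 in KO. Its groups were far apart, and it had the lowest log2FC of all members, -0.60 (SE 0.06, edgeR adjusted p = 0.000137). Most of its counts, though, lay on Gm15500, a transcribed processed pseudogene on chromosome 7 (114705217 to 114706235) that matched Rpl5 at 100% identity, with 2445 ± 37 CPM in WT against 2039 ± 67 in KO (SD, n = 3 each) and a log2FC of -0.26 (SE 0.05, edgeR adjusted p = 0.00376). Rpl5 with its copies changed by -0.27 (SE 0.05, edgeR adjusted p = 0.00284). Rpl11 (chromosome 4, 136028265 to 136053428), with 849, 860 and 818 CPM in WT and 694, 629 and 709 in KO, fell by 0.32 on the log2 scale (SE 0.06, edgeR adjusted p = 0.00436). All its KO libraries lay below WT.

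In the list used here, the proteins in the surroundings of the peptidyl transferase centre, where the peptide bond forms, are Rpl3, Rpl4, Rpl8 and Rpl10. All 4 rows fell (100%, against 49.4% of all members and 22.2% of all rows), and 3 of the 4 were called lower with copies added. Rpl4 had 3965, 4066 and 4126 CPM in WT and 3282, 3096 and 3230 in KO. Its log2FC was -0.34 (SE 0.05, edgeR adjusted p = 0.000982). Rpl3, which reaches toward that centre, went from 2911, 2965 and 2976 CPM to 2319, 2236 and 2373, a log2FC of -0.35 (SE 0.05, edgeR adjusted p = 0.000786). In both genes the highest KO library lay well below the lowest WT library. Rpl8 fell by 0.19 on the log2 scale and was called in 14 of 17 alternatives. Rpl10, among the last proteins to join the maturing subunit, had a log2FC of -0.22 (edgeR adjusted p = 0.0162) in its own row and -0.05 (edgeR adjusted p = 0.465) with its copies, of which Rpl10-ps3 was at 895 CPM in WT and 920 in KO.

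The largest change outside the copy-rich genes was in Rpl37a, a zinc-binding protein of the 60S subunit (ENSMUSG00000046330, chromosome 1, 72711290 to 72713813). It had 360, 375 and 366 CPM in WT and 268, 236 and 252 in KO, and fell by 31.3% (log2FC -0.54, SE 0.06, edgeR adjusted p = 0.000344), with 0% of its counts on copies. Rpl7, another 60S protein, had 2047, 2126 and 2086 CPM in WT and 1635, 1462 and 1619 in KO, a fall of 24.6% (log2FC -0.41, SE 0.06, edgeR adjusted p = 0.001). Both genes were lower in every KO library than in any WT library. Rpl13a, known also for a role outside the ribosome in silencing inflammatory mRNAs, went from 2119, 2122 and 2036 CPM to 1688, 1557 and 1506 (log2FC -0.40, SE 0.06, edgeR adjusted p = 0.00104). Rpl21 went from 997, 1040 and 1017 CPM to 784, 732 and 804 (log2FC -0.40, SE 0.06, edgeR adjusted p = 0.000922). In the 40S subunit the lowest value belonged to Rps25, a protein that some viral mRNAs need to recruit ribosomes: 703, 719 and 681 CPM in WT and 558, 500 and 548 in KO (log2FC -0.39, SE 0.06, edgeR adjusted p = 0.00149). Rpl38, which has been tied to the translation of Hox mRNAs, fell by 0.25 on the log2 scale (edgeR adjusted p = 0.0108), and at -0.23 lost its call when WT replicate 2 was left out (adjusted p = 0.0544).

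**Figure D5:**
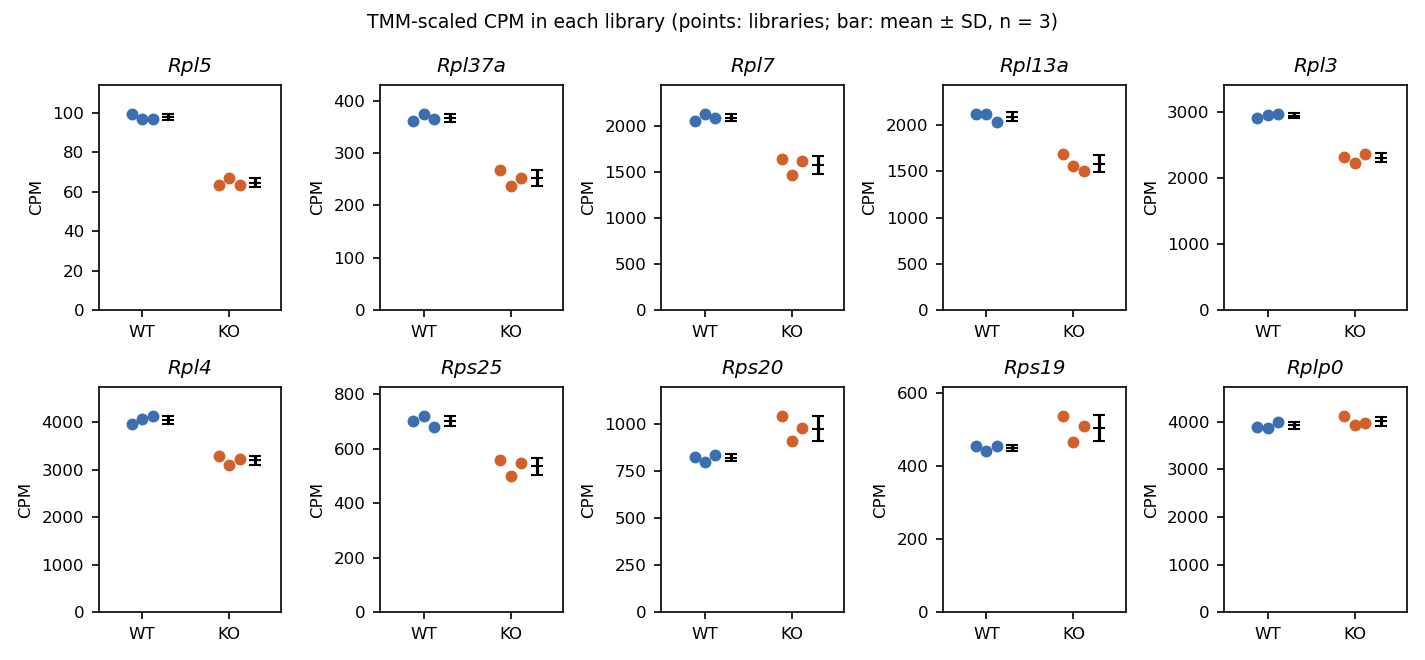
TMM-scaled CPM (y axes from 0) of 10 members in each WT and KO library; points are libraries and bars the mean ± SD of 3. In the first 7 panels the KO points lie below all WT points, in Rps20 and Rps19 above them, and in Rplp0 the groups overlap.

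Rps20, a protein of the head of the 40S subunit, was the only member called higher. It had 829, 801 and 838 CPM in WT and 1044, 912 and 979 in KO (chromosome 4, 3831334 to 3835665), a rise of 18.9% (log2FC 0.25, SE 0.06, edgeR adjusted p = 0.0127). The groups did not overlap, although the call was lost without WT replicate 2 (adjusted p = 0.0683). Rps19, the gene most often mutated in Diamond-Blackfan anaemia, an inherited failure of red cell production, had 456, 442 and 455 CPM in WT and 537, 467 and 510 in KO (log2FC 0.16, SE 0.06, edgeR adjusted p = 0.0701). It passed the test with plain library sizes (adjusted p = 0.0236) and without KO replicate 2 (0.039). Of 19 members linked to that disease, 7 were called lower (36.8%, against 49.4% of all members and 22.2% of all rows) and none higher, with a median log2FC of -0.13.

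The stalk of the 60S subunit, built from Rplp0 with pairs of Rplp1 and Rplp2, recruits the GTPases of elongation. Rplp0 had 3888, 3872 and 3995 CPM in WT and 4113, 3927 and 3980 in KO (log2FC 0.03, SE 0.05, edgeR adjusted p = 0.609). Rplp1 was at 0.07 (edgeR adjusted p = 0.341), and Rplp2 at -0.12 (adjusted p = 0.118) with no overlap between groups. Rpl12, at the base of the stalk, was called lower in its own row (log2FC -0.30, edgeR adjusted p = 0.0269), but its copies held nearly all of its counts, and together they were at 0.02 (adjusted p = 0.815). Gm10275, its main copy, had 1312 ± 24 CPM in WT against 1349 ± 71 in KO (SD, n = 3 each). So with copies added none of the 4 stalk genes passed the test.

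The groups by position are small, and their counts stand beside 22.2% of all rows and 49.4% of all members called lower. Around the exit of the peptide tunnel 1 of 8 genes fell (12.5%), Rpl22 (318, 350 and 318 CPM in WT, 264, 246 and 273 in KO, log2FC -0.33, SE 0.07, edgeR adjusted p = 0.00471), a protein with a known part in T cell development. Rpl39, in the wall of the tunnel, was at -0.05 (adjusted p = 0.586). At the mRNA exit of the 40S subunit 3 of 5 genes fell (60%): Rps28 was lowest at -0.31, followed by Rps26 at -0.27 and Rpsa, also known as the laminin receptor precursor, at -0.21 (edgeR adjusted p = 0.0036, 0.00604 and 0.0103), the last losing its call without WT replicate 3 (adjusted p = 0.0506). At the mRNA entry Rps3 fell by 0.18 on the log2 scale and Rps2 was at -0.08 (edgeR adjusted p = 0.0298 and 0.27); Rps3 was called in 11 of 17 alternatives. None of the 3 genes of the 40S beak, Rps10, Rps12 and Rps27a, passed the test. Rps6, the substrate of S6 kinase, had 2289, 2280 and 2266 CPM in WT and 2072, 1970 and 2109 in KO (log2FC -0.15, SE 0.05, edgeR adjusted p = 0.0368), and lost its call in 9 of 17 alternatives, including the addition of its copies (adjusted p = 0.0745).

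Some members have paralogs that can take their place. Rps27l, a paralog of Rps27 induced by p53, was at -0.08 (edgeR adjusted p = 0.469) and Rps27 at 0.08 (adjusted p = 0.351), with 308 ± 8 and 326 ± 24 CPM for Rps27 (SD, n = 3 each) and 61.4 ± 1.6 and 58.0 ± 6.6 for Rps27l, and overlapping groups in both. The X-linked Rps4x fell by 0.21 on the log2 scale (edgeR adjusted p = 0.0159), and kept its size but lost its call without WT replicate 2 (-0.21, adjusted p = 0.0655), without WT replicate 3 (-0.20, 0.0674) and with a replicate block (-0.21, 0.0539). Among the members with the smallest changes were Rpl35, Rpl18 and Rpl19, whose log2FCs ran from -0.01 to 0.01. Rpl19 showed 1160, 1224 and 1166 CPM in WT and 1215, 1130 and 1236 in KO, so the WT values lay within the range of the KO.

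Per kilobase of coding sequence, the highest row was Rpl41, whose coding sequence of 75 bases is the shortest, at 13030 CPM per kb, followed by Rplp0 and Rpsa at 4167 each and Rplp1 at 3916. These levels are means over all 6 libraries, and since reads also fall outside the coding sequence they overstate the shortest genes. The 4 lowest rows were Rpl5 at 91.0, Rps12 at 151, Rpl12 at 183 and Rpl27 at 195 CPM per kb, all genes with most counts on copies. With copies added the lowest member was Rps27l at 237 CPM per kb, and the median was 2022. On this scale Rpl5 stood at 2608 and Rps12 at 3703, among their partners in the ribosome.

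To see which members moved apart from the rest, each was compared with the summed counts of all 77 in place of the whole library, a comparison added after the data were seen. On this scale the median of all rows is 0.17. Of the members, 12 were called higher and 9 lower by edgeR, against 35.9% and 14.2% of all rows, and 50.1% in either direction. With copies added 11 were called higher and 9 lower, against 35.7%, 14.5% and 50.2% of rows. The 9 called lower in their own rows were Rpl5, Rpl37a, Rpl7, Rpl13a, Rpl21, Rps25, Rpl3, Rpl4 and Rpl11. Of these, 8 belong to the 60S subunit, as do 46 of the 77 members. The largest change was in Rpl5 (-0.44), which was not called with its copies added (adjusted p = 0.0768). The next was Rpl37a (-0.39, edgeR adjusted p = 0.00108). Rpl22 was called lower only with copies added (-0.18, edgeR adjusted p = 0.0462). Among the 12, Rps20 (0.40, edgeR adjusted p = 0.000794), Rps19 (0.32, 0.00289), Rps27 (0.24, 0.014), Rplp1 (0.22, 0.0106) and Rplp0 (0.19, 0.017) stood higher relative to the other members. Rps12 (0.28) was called in its own row and not with its copies (adjusted p = 0.107). The number called higher was sensitive to the libraries: it was 4 without WT replicate 1, without replicate 2 and without replicate 3, and the number called lower was 4 without WT replicate 2.

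The start-site windows of these genes show what the TOP motif looks like. RefSeq windows (GRCm38.p6) were found for 57 of the 77 members and for 27025 genes. Where a gene had more than 1 window, as 9 members did, only the first by coordinate was used. Some of the starts used lie far inside the GENCODE gene, by 3553 bases in Rps24 and 575 in Rps25. The windows below hold 12 bases before the RefSeq start and 18 from it on, with the longest run of pyrimidines led by C that begins within 5 bases of that start in capitals. Rpl13a and Rps27 show a long run; Rpl4 and Rpl37a, both lower in the KO, show how the annotated start decides what is found.
Rpl13a, chr7:45128728-45128757, minus strand: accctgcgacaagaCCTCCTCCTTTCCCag
Rps27, chr3:90213631-90213660, minus strand: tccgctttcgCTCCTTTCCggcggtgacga
Rpl4, chr9:64173375-64173404, plus strand: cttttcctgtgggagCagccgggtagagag
Rpl37a, chr1:72711248-72711277, plus strand: cgctcgccggtCTaaaaccgcgcatgcgca
The runs are 14, 9, 1 and 2 bases long. Around the GENCODE gene start instead, which lies 12 bases upstream in Rpl4 and 30 bases downstream in Rpl37a, runs of 13 and 11 bases were found in these genes, and of 4 and 9 in Rpl13a and Rps27.

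A run of at least 5 bases beginning exactly at the RefSeq start was present in 12 of 57 members (21.1%) and 2.5% of all genes with a window. Beginning within 5 bases of it, a run was present in 27 members (47.4%) and 18.3% of genes. Of the 31 members with a window that were called lower, 10 had such a run, and of the 26 not called, 17 had one. Around the GENCODE start, where 45 members could be searched, it was 6 of 27 and 6 of 18. For the GENCODE start no share over all genes was computed. In the whole window of 300 bases, searched on both strands, CCGGAAG, the core bound by ETS factors such as GABP, was present in 42.1% of members and 9.1% of genes. AAGATGG, a core bound by YY1, was present in 15.8% and 6.5%, the E-box CACGTG in 8.8% and 7.1%, and TATAAA in 10.5% and 14.1%. A match is a description of letters and shows no binding.

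Other genes of the translation machinery were taken from lists by role. Of 7 ribosomal proteins whose symbols lie outside the rule, 2 fell: Rps3a1 by 0.16 and Rpl36al by 0.19 on the log2 scale (28.6%, against 22.2% of all rows; edgeR adjusted p = 0.0458 and 0.0357), both losing their calls when any WT library was left out. Rack1, a scaffold on the 40S subunit, was at -0.06, Rpl22l1 at -0.05, Rpl7l1 at 0.06, and Fau, made as a fusion to a ubiquitin-like protein, at 0.05, none of which passed the test. Most counts of Fau lay on a copy too: Gm9843 had 457 CPM in WT and 404 in KO, beside 85.6 and 88.3 for Fau. Of 10 dedicated chaperones and importers of ribosomal proteins, 1 fell, Nap1l1, a histone and ribosomal protein chaperone (-0.32, edgeR adjusted p = 0.00639; 10%, against 22.2% of all rows), and none rose.

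A further list held 21 TOP transcripts from outside the ribosome, for elongation and other factors and the non-coding Gas5. Of these, 15 fell (71.4%, against 22.2% of all rows) and 1 rose (4.8%, against 25.1%), with a median log2FC of -0.25, and they held 4.67% ± 0.07 of counts in WT and 3.74% ± 0.13 in KO (SD, n = 3 each). Eif4b, which helps unwind mRNA leaders, went from 995, 1022 and 1039 CPM to 590, 563 and 548 (log2FC -0.85, SE 0.05, edgeR adjusted p = 2.47e-05). Hnrnpa1, an RNA-binding protein, was at -0.56, Naca, a chaperone of nascent chains, at -0.50 and Eef2, the translocation factor, at -0.47 (edgeR adjusted p = 8.43e-05, 0.000259 and 0.000293). Eef1a1, the most abundant of the list and named after its values were seen, had 19960 ± 483 CPM in WT against 15050 ± 814 in KO. Gas5, the non-coding transcript, was at -0.26 (adjusted p = 0.00938), and Tpt1 was the transcript that rose (0.15, edgeR adjusted p = 0.0334). No test was made of the difference between the lists.

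Among 20 genes of TOP binding and mTORC1, 3 rose (15%, against 25.1% of all rows) and 5 fell (25%, against 22.2%). The mTORC1 subunit Mlst8 was at -0.69, the S6 kinase Rps6kb2 at 0.47, the cap-binding repressor Eif4ebp1 at 0.32 and the mTORC1 inhibitor Tsc2 at 0.26 (edgeR adjusted p = 0.000521, 0.00453, 0.00563 and 0.00893). The paralogs Rps6kb1 (-0.25) and Eif4ebp2 (-0.23) went the other way (edgeR adjusted p = 0.0108 and 0.0254). In WT they had 82.41 and 227.6 CPM, against 19.65 for Rps6kb2 and 112.5 for Eif4ebp1. Mtor at -0.20 and Deptor at -1.45, the latter with 1.58 CPM in WT, were also called lower (edgeR adjusted p = 0.0256 and 0.0192). Without KO replicate 2 the number called was 4 in place of 8, and Tsc2 was not called (adjusted p = 0.0513). Larp1, named for its role and after its values were seen, had 411, 401 and 458 CPM in WT and 514, 472 and 370 in KO (log2FC 0.09, edgeR adjusted p = 0.543). The WT values lay within the range of the KO. Of 28 translation initiation factors 7 rose and 4 fell, which at 25% and 14.3% is near the shares of all rows (25.1% and 22.2%). Not among the 28 were Eif4b, Eif2s3x, Eif3e, Eif3f, Eif3h, Eif3k, Eif3l and Eif3m, which were counted with the TOP transcripts above. Of these, Eif4b, Eif3e, Eif3h, Eif3l and Eif3m were called lower and none higher, so the counts depend on how the lists were divided. Within the 28, the start-codon factor Eif1 at 0.74, the helicase Eif4a2 at -0.60, Eif4g2 at 0.61 and Eif5 at 0.42 had the smallest p (edgeR adjusted p = 7.24e-05, 0.000165, 0.00121 and 0.00129). The number called was 6 without WT replicate 1 or 2, in place of 11.

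Of 17 genes found for the rescue and storage of stalled or idle ribosomes, 8 rose (47.1%, against 25.1% of all rows) and 1 fell (5.9%, against 22.2%). Gtpbp2, which acts on stalled ribosomes, had 150, 140 and 142 CPM in WT and 240, 273 and 264 in KO (log2FC 0.85, SE 0.07, edgeR adjusted p = 6.02e-05). Hbs1l, the partner of Pelota, was at 0.34, Habp4 at 0.78 and the ubiquitin ligase Rnf25 at 0.44 (edgeR adjusted p = 0.00173, 0.00208 and 0.00321). In each of these 4 genes all KO libraries lay above WT, though Habp4 had only 9.08 CPM in WT. The gene that fell was Serbp1, with 1064 CPM in WT and 893 in KO (log2FC -0.25, edgeR adjusted p = 0.0322). Among 10 transcription factors tied to ribosomal protein promoters 3 rose (30%, against 25.1% of all rows) and 2 fell (20%, against 22.2%): Zbtb7a (0.43) and Tbpl1 (0.51) were higher, and Yy1 (-0.32) and the GABP subunit Gabpb2 (-0.27) lower (edgeR adjusted p = 0.000766, 0.00117, 0.00745 and 0.0125), the last of these at -0.22 without WT replicate 2 (adjusted p = 0.0599). Myc, named after its values were seen, had 270, 261 and 311 CPM in WT and 246, 213 and 143 in KO (log2FC -0.48, edgeR adjusted p = 0.0527).

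The p53 pathway responds when free Rpl5 and Rpl11 hold MDM2. Of its 12 genes tested here, 3 rose and 2 fell, and these shares of 25% and 16.7% are near those of all rows (25.1% and 22.2%). Gadd45a, a growth arrest gene, rose from 5.07, 4.98 and 5.52 CPM to 22.2, 28.9 and 38.5 (log2FC 2.52, SE 0.20, edgeR adjusted p = 6.02e-05), and Sesn2, an inhibitor of mTORC1 signalling, was at 1.16 (adjusted p = 7.51e-05). Mdm2 also rose (0.23, SE 0.05, edgeR adjusted p = 0.00761), with all KO libraries above WT. Trp53inp1 and Zmat3 fell by 0.76 and 0.71 on the log2 scale (edgeR adjusted p = 0.00112 and 0.00192). The 7 genes not called included Cdkn1a at 0.19 and Bax at 0.03 (edgeR adjusted p = 0.161 and 0.713).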

How the data were processed

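Values are estimated counts per gene as the authors deposited them, of which 72.2% of those above 0 were whole; they were rounded before testing. Per the submitters' processing notes, Bowtie 0.12.2 and mm8 were used, in steps not stated. The counting program, its annotation and any use of strand are not stated in the sources used here, so reads of a gene and of one that overlaps it or runs antisense may be mixed. Symbols and coordinates are GENCODE M21 (GRCm38), matched by gene ID for 51633 of 51912 Ensembl rows. Another 944 rows without a gene name held 0.903% to 1.56% of counts and stayed in library sizes. A deposited table of 30 genes holds no member and was not used.

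Rows were kept by filterByExpr, scaled by TMM and tested with edgeR 4.0.16 (quasi-likelihood, robust, no covariate; R 4.3.3); CPM are TMM-scaled. SE is the unshrunk log2 fold change over the root of F. Copies were matched with blastn 2.17.0 (at least 90% identity, 100 bases and 50% of the row) and added after the data were seen. limma 3.58.1 and DESeq2 1.42.0 served as alternatives. The code was tested on simulated data. Members and lists were chosen with earlier results of these data known. Named were paralogs, the 8 smallest p in each direction, the 4 highest and lowest per length, the 4 smallest changes and genes fixed by role; from each list up to 4 called genes by smallest p. Rps26, Rpl8, Mdm2, Cdkn1a, Bax, Rps6kb1, Eif4ebp2, Serbp1, Mtor and Deptor were named after their values were seen. So were Col1a1, Col3a1, Dcn, Eif2s3x and the Eif3 genes. A few named-gene results are left out here.

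Over all rows tested, same-numbered WT and KO libraries did not deviate together. This cannot tell whether they were prepared together. The labels state no pairing, so none was used in the main fit.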

Additional observations from a re-analysis of the deposited data

How the results depend on the processing

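Of 39 called members, 21 were called lower under all 17 alternatives, Rps20 was called higher in 16, and the median over the members ran from -0.19 to -0.11. The 38 lower calls became 25 with a replicate block and 25 to 43 when each library was left out in turn; the single higher call became 2 with plain library sizes, 2 with an exon length offset and 0 to 2 without a library. Lower calls over all rows also fell with the block, without KO replicate 2 and without any WT library, each time by a smaller share than in the members. Deviations of same-numbered libraries had correlations of 0.001, -0.007 and -0.016, which cannot tell whether those libraries were prepared together. Against the other members, the 12 higher became 3 with the replicate block and 4 to 13 without a library, and the 9 lower 4 to 11. Among ribosomal proteins outside the rule, the 2 calls became 0 with plain library sizes, 1 with no filter, 0 with the block and 0 to 2 without a library. Chaperones went from 1 to 2 with plain library sizes and 1 to 5 without a library, and initiation factors from 11 to 7 with the block and 6 to 14 without a library. Without a library the 8 calls among mTORC1 genes became 4 to 11 and the 5 among transcription factors 3 to 7. The members' share of counts was 8.10% in WT outside unnamed rows, 8.50% in WT and 7.90% in KO with copies matched by name, and 8.95% and 8.32% with those matched by sequence. Rpl12 reversed with its copies added, to 0.0184, and to 0.17 against the other members. Of 3643 single-gene values under an alternative, 3358 kept direction and side of the threshold, 216 lost a call, 67 gained one and 2 reversed. Causes were not tested. In 57 members the change was within 0.25, at SEs of 0.05 to 0.10 and counts of at least 1276 per library; smaller changes than these errors allow were not detectable.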
